A study of Rattus norvegicus with 6 samples.

Results

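The hepatocyte identity transcription factors examined here are Foxa1, Foxa2, Foxa3, Onecut1, Cebpa and Prox1, chosen by name as DNA-binding proteins that establish and hold the liver cell's program. Every probe set whose annotation gave exactly 1 gene symbol, and that symbol 1 of these 6 genes, was taken, which gave 12 of the 31042 probe sets tested. Foxa1, Foxa2 and Foxa3 had 1 probe set each, Onecut1 and Prox1 had 2 each, and Cebpa had 5. Livers came from male Wistar rats, bought at 6 weeks of age at about 150 g and housed singly. After 4 days on a commercial pellet the animals learned over 4 days to take a control diet (15P) in a daily window, then received for 8 hours either 15P or 5P, a diet low in protein with equal energy. All livers, controls included, were taken after 16 hours without food, so both groups were fasted. There were 3 arrays per diet, and the labels do not state whether every array came from its own rat, so the p-values reflect only variation among these 6 samples, which may be technical.

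Hepatocyte identity rests on a small set of factors that bind each other's genes as well as those of liver products. The FOXA proteins, also called HNF3 alpha, beta and gamma, are forkhead pioneer factors that open chromatin at liver enhancers. Onecut1, also called HNF6, joins a cut domain to a homeodomain and is a known activator of the Foxa2 promoter. C/EBP alpha, the product of Cebpa, is a leucine zipper factor of the quiescent hepatocyte that drives genes of gluconeogenesis, glycogen and nitrogen metabolism. Prox1 is a homeodomain protein of hepatocytes and lymphatic endothelium that mostly represses, in company with nuclear receptors.

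The stretch upstream of the RefSeq start was read for the members that the promoter table holds, Foxa2, Cebpa and Foxa3, because members are known to bind at one another's promoters. The first 2 are shown 5' to 3' over 250 bases ending just before the start, from RefSeq build GRCr8. Foxa2 lies on the minus strand at chr3:155927509-155927758 and Cebpa on the plus strand at chr1:96896334-96896583. Capitals mark a match to the Onecut1 (HNF6) core searched, ATNGATT, with N any base.
Foxa2: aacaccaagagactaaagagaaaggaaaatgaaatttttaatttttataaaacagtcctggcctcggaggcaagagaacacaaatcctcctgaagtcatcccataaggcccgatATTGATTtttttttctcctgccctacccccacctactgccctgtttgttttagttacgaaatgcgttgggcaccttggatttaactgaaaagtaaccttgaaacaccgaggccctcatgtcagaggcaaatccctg
Cebpa: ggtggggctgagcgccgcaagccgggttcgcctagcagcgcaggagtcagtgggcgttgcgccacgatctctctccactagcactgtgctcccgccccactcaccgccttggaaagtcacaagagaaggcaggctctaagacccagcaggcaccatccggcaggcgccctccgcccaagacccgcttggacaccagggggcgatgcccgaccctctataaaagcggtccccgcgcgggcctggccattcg
The Foxa2 match spans bases 136 to 130 upstream of the start, on the gene's own strand. On either strand, 6.31% of 33469 promoter windows of the same length held this core. The forkhead core TGTTTNC (18.3% of windows), the C/EBP core TTGCNNAA (9.22%) and the HNF4 core CAAAGTCCA (0.338%) were searched in the same way, and none of those letters occurred in the Foxa2, Cebpa or Foxa3 window. Base composition differed between the windows, with 42.8% G and C in Foxa2 and 67.2% in Cebpa against a median of 51.2% over all windows. A match describes the letters and is not evidence of binding in these livers.

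Among the controls, replicate 3 scored nearest to the low-protein livers on 1 summary of the most variable signals. On the first principal component of the 1000 most variable probe sets, which held 41.3% of their variance, controls scored -17.65, -12.67 and -6.24 and low-protein livers 10.80 to 14.40. Array medians of intensity ran only from 33.34 to 34.32.

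Low-protein livers had lower mean signal for Onecut1, Cebpa and Foxa2, with Onecut1 the furthest apart, and no member passed the test over the whole array. Across the 12 probe sets 10 were lower and 2 higher, with a median log2 fold change (5P minus 15P) of -0.41. Over all 31042 probe sets the median was 0.032 and 41.9% were lower. Cebpa supplied 5 of the 12 and Onecut1 supplied 2. With 1 probe set per gene, 4 of the 6 members were lower and 2 higher, with a median of -0.26. All genes had a median of 0.031, and 42.4% of them were lower. None of the 12 reached an adjusted p under 0.05 by limma, a threshold that 0.132% of all probe sets passed. At an unadjusted limma p under 0.05 there were 6, all of them lower and all of Onecut1 or Cebpa. Of all probe sets, 7.58% were lower at that level. Groups did not overlap for 5 of the 12, again all lower, where 9.12% of all probe sets had every low-protein array below every control. Those 5 belong to Cebpa (4) and Onecut1 (1), and probe sets of 1 gene share its transcripts, so they are not independent. By gene, groups did not overlap for 1 of the 6, which was lower, where 10.1% of all genes were lower without overlap. Without control replicate 3, 2 of the 12 passed, both of Onecut1, when 0.351% of all probe sets did. In whole liver, fewer cells of a type and less RNA per cell cannot be told apart.

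**Figure D1:**
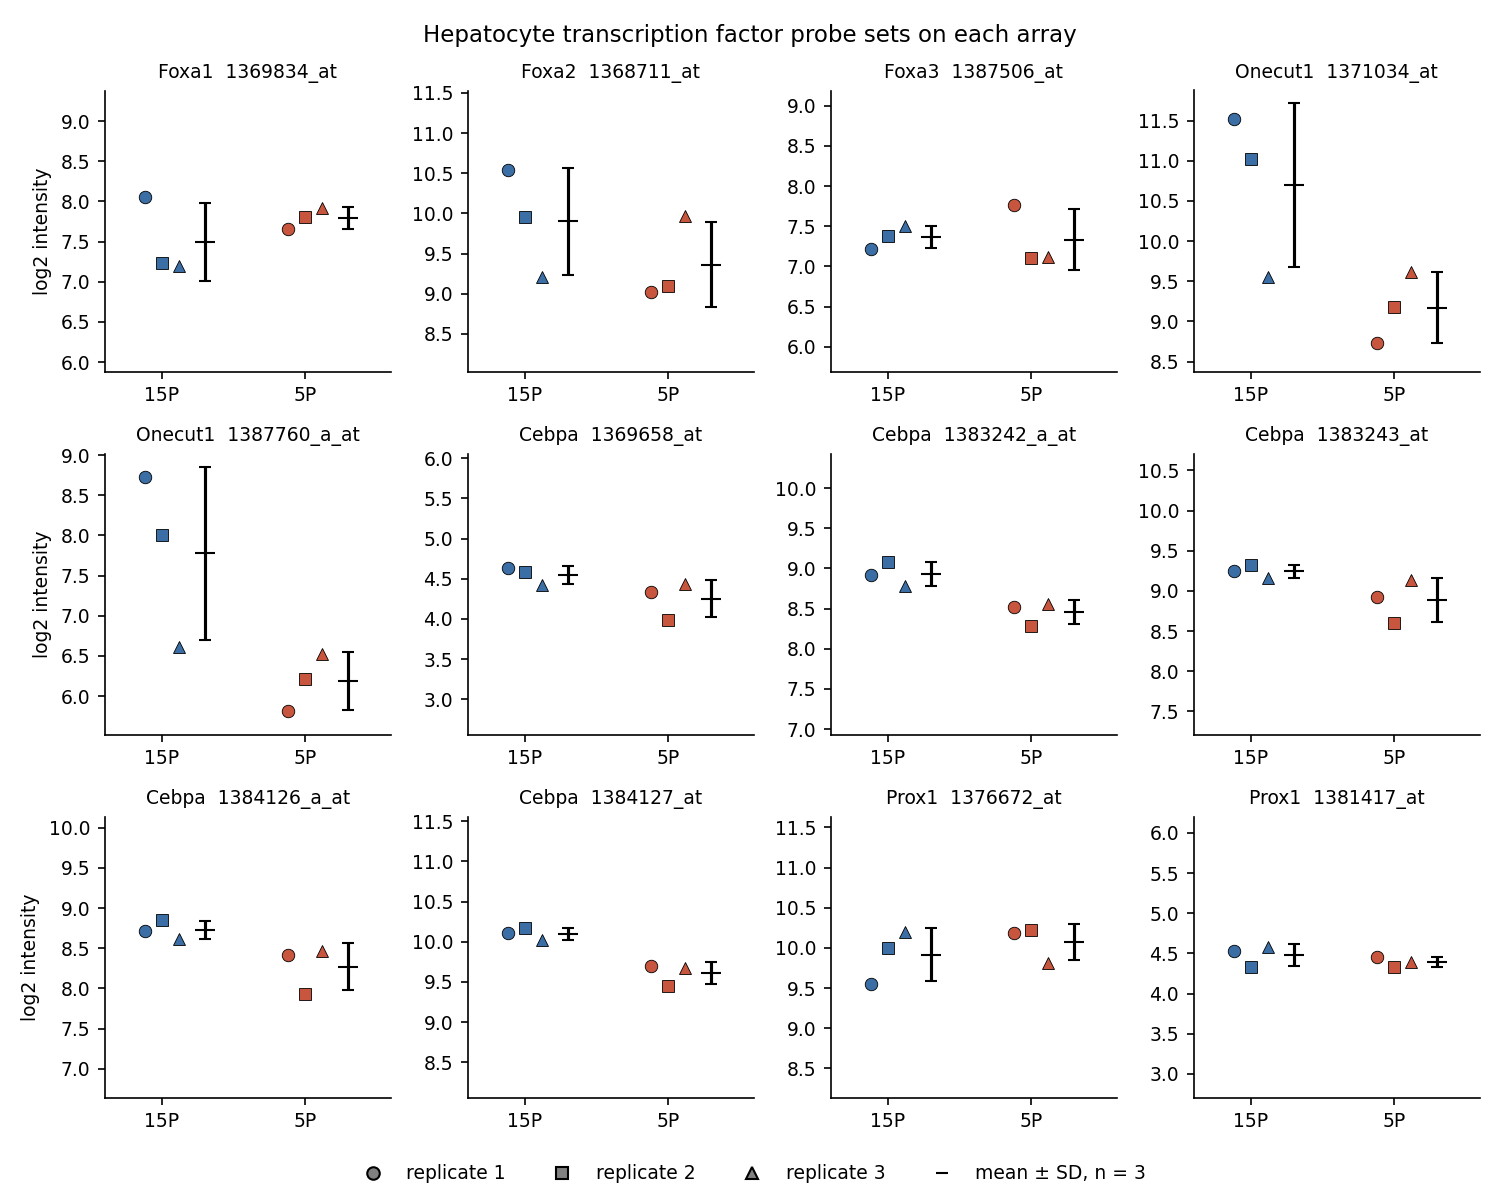
Log2 intensity (vertical axis, every panel spanning the same height in log2 units) of the 12 probe sets on the 3 control (15P) and 3 low-protein (5P) arrays, with marker shape for the replicate number and a bar for mean ± SD. Both Onecut1 panels show control replicate 3 beside the low-protein arrays, and the Cebpa panels show tight controls (SD 0.08 to 0.15) with low-protein SDs of 0.14 to 0.30.

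Onecut1 (gene ID 25231) had the widest range of any member. Its brighter probe set read 11.52, 11.02 and 9.55 (log2 intensity) on control replicates 1 to 3 and 8.73, 9.18 and 9.61 on low-protein replicates 1 to 3. On the linear scale these are intensities of 2939, 2076 and 747 in controls and 424, 579 and 784 in low-protein livers. Control replicates 1 and 2 stood far above the rest, while control replicate 3 lay just below low-protein replicate 3, so the groups overlapped. The dimmer probe set gave 8.73, 8.00 and 6.61 in controls and 5.81, 6.21 and 6.53 in low-protein livers. Here the groups were apart by 0.07. After each probe set was centred on its own mean, the pair differed by at most 0.16 on any array, so both report the same array-to-array pattern.

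Mean Onecut1 signal was 2.87-fold lower on the low-protein diet by the brighter probe set, from 10.70 ± 1.03 to 9.17 ± 0.44 (SD, n = 3 each), and 3.02-fold lower by the dimmer one, from 7.78 ± 1.08 to 6.19 ± 0.36. The log2 fold changes were -1.52 (SE 0.453, 95% interval -2.56 to -0.49) and -1.59 (SE 0.462, -2.65 to -0.54). Neither passed limma's test over all probe sets, with adjusted p = 0.182 and 0.175. In absolute log2 fold change both stood at percentile 99.9 of all probe sets. The control spread was as extreme, at percentiles 99.8 and 99.9 of all control SDs. Without control replicate 3 both probe sets passed, at -2.10 (limma adjusted p = 0.0362) and -2.18 (adjusted p = 0.0319), when 0.351% of all probe sets did. Without control replicate 1, the highest array, they were -1.11 (limma adjusted p = 0.368) and -1.12 (adjusted p = 0.334). Over the 16 alternative settings the adjusted p ran from 0.0362 to 0.375 and from 0.0319 to 0.352, and all 32 fold changes were negative.

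Cebpa (gene ID 24252) differed less in size than Onecut1 and spread less within each diet. Its brightest probe set read 10.11, 10.17 and 10.02 in controls and 9.70, 9.45 and 9.68 in low-protein livers. The groups were 0.32 apart, more than the range within either diet (0.15 and 0.25). The mean went from 10.10 ± 0.08 to 9.61 ± 0.14 (SD, n = 3 each), 1.41-fold lower, with a log2 fold change of -0.49 (SE 0.101, 95% interval -0.72 to -0.26). By limma it had an unadjusted p = 0.00112 and an adjusted p = 0.0932, and so did not pass. The adjusted p was never under 0.073 in any of the 16 alternatives, and its value with control replicate 3 left out was -0.53 on the log2 scale (limma adjusted p = 0.109).

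The other Cebpa probe sets ran the same way. The third brightest probe set read 8.92, 9.08 and 8.78 against 8.52, 8.28 and 8.56, and the fourth read 8.71, 8.85 and 8.62 against 8.42, 7.93 and 8.46. Both had every low-protein array below every control, with log2 fold changes of -0.47 and -0.46. The groups of the second brightest were only 0.02 apart, at 9.25, 9.32 and 9.16 against 8.92, 8.60 and 9.14 (-0.35). The dimmest probe set, whose mean lay below the median of the array, read 4.63, 4.59 and 4.42 against 4.33, 3.99 and 4.44 (-0.29) and overlapped. Low-protein replicate 2 was the lowest array in all 5, and the 5 centred values differed by at most 0.25 on any array. Without that array the log2 fold changes of the fourth, second and dimmest probe sets shrank to -0.29, -0.21 and -0.16, each by more than 1.5 times, and those of the brightest and the third to -0.41 and -0.39. All 79 Cebpa fold changes under the alternatives were negative.

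Foxa2 (gene ID 25099, 1 probe set) was lower on average with wide spread in both diets. It read 10.54, 9.95 and 9.21 in controls and 9.02, 9.10 and 9.97 in low-protein livers. Control replicate 3 sat with low-protein replicates 1 and 2, and low-protein replicate 3 sat with control replicate 2. The log2 fold change was -0.53 (SE 0.348, 95% interval -1.33 to 0.26, limma adjusted p = 0.502), from 9.90 ± 0.67 to 9.37 ± 0.53 (SD, n = 3 each). It ran from -0.88 without control replicate 3 to -0.21 without control replicate 1, a change of more than 1.5 times, and did not pass in either case. On control arrays Foxa2 and Onecut1 had the same order, replicate 1 highest and replicate 3 lowest, and on low-protein arrays both were lowest on replicate 1 and highest on replicate 3.

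Foxa1 (gene ID 25098, 1 probe set) was the FOXA member with a higher mean on the low-protein diet. It read 8.06, 7.23 and 7.20 in controls and 7.65, 7.80 and 7.92 in low-protein livers. Control replicate 1 was the highest of all 6 arrays, and the other two controls were the lowest. The log2 fold change was 0.29 (SE 0.216, 95% interval -0.20 to 0.79, limma adjusted p = 0.552), and it was 0.57 without control replicate 1 and 0.15 without control replicate 3. Low-protein arrays spread less than controls, with an SD of 0.14 against 0.49.

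Foxa3 (gene ID 25100, 1 probe set) was nearly level. It read 7.22, 7.38 and 7.50 in controls and 7.77, 7.11 and 7.12 in low-protein livers, where replicate 1 was the highest array and the other two the lowest. The log2 fold change was -0.03 (SE 0.178, limma adjusted p = 0.955), and its sign turned in 6 alternatives, among them 75th-percentile centring (0.02) and without control replicate 3 (0.03). Its 95% interval of -0.44 to 0.38 covers differences from 0.737-fold to 1.3-fold. Whether the 3 paralogs differed from each other in their response was tested on within-array differences, with an exact permutation test over the 6 arrays, two-sided, for 3 pairs. The diet difference of Foxa1 exceeded that of Foxa2 by 0.83 (exact p = 0.2), that of Foxa3 exceeded that of Foxa2 by 0.50 (exact p = 0.5), and that of Foxa1 exceeded that of Foxa3 by 0.33 (exact p = 0.6). All 3 had a Benjamini-Hochberg adjusted exact p of 0.6, and 3 arrays against 3 cannot give a p below 0.1.

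Prox1 (gene ID 305066) showed no difference beyond the spread. The brighter probe set read 9.55, 10.00 and 10.20 in controls and 10.18, 10.22 and 9.81 in low-protein livers, so control replicate 1 was lowest and the groups overlapped. The log2 fold change was 0.16 (SE 0.178, 95% interval -0.25 to 0.56, limma adjusted p = 0.718), and leaving out control replicate 1 gave -0.03, whereas leaving out control replicate 3 gave 0.30. The second probe set was dim, at 4.33 to 4.58 in controls and 4.33 to 4.46 in low-protein livers (-0.08, limma adjusted p = 0.732). The pair differed by 0.53 on control replicate 1 after centring, so they did not track each other there.

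**Figure D2:**
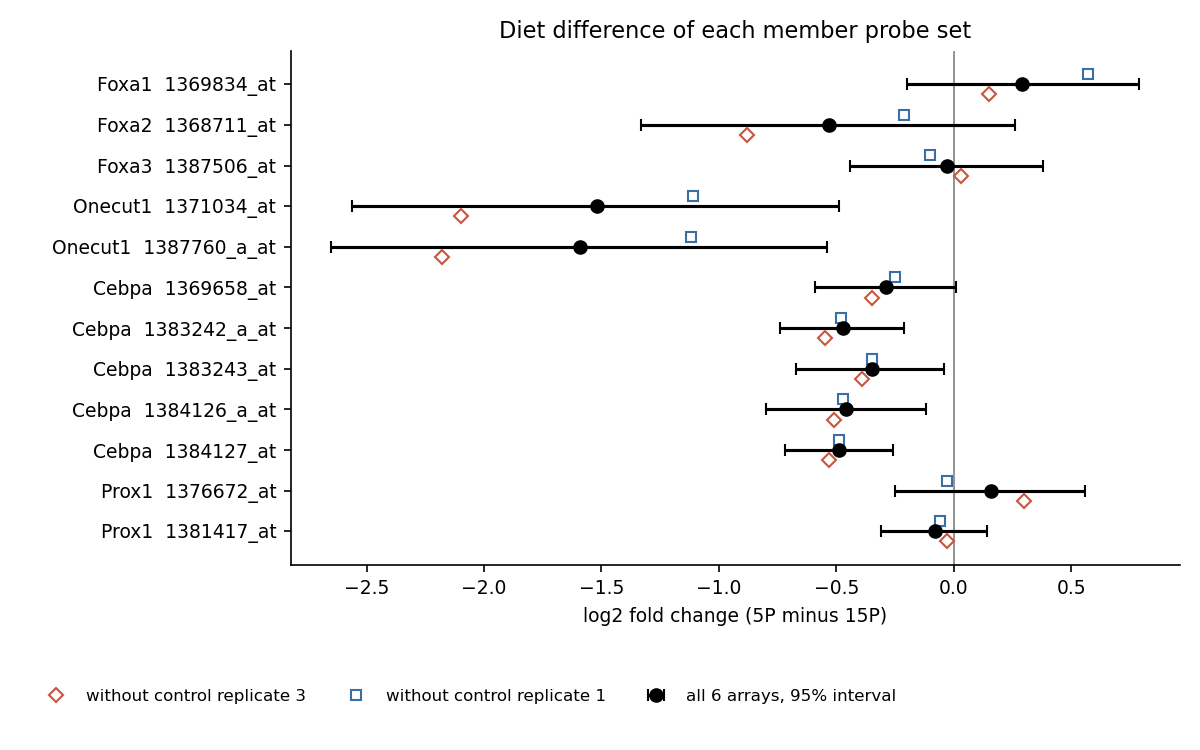
Log2 fold change (5P minus 15P, horizontal axis) of each probe set with its 95% interval from limma, with the values without control replicate 3 (open diamonds) and without control replicate 1 (open squares). The intervals of both Onecut1 probe sets and of 4 Cebpa probe sets lie below 0, and leaving out control replicate 3 moves Onecut1 from -1.52 and -1.59 to -2.10 and -2.18, whereas leaving out control replicate 1 moves it to -1.11 and -1.12.

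Genes with the most similar pattern were found by the root mean square difference of mean-centred log2 values over the 6 arrays, among 9528 genes at or above the median signal. For Cebpa these were Car3, a carbonic anhydrase (0.0363), and Ankrd12, an ankyrin repeat protein (0.0511), against a root mean square of 0.263 for Cebpa about its own mean. Car3 read 13.74, 13.73 and 13.55 in controls and 13.31, 13.06 and 13.30 in low-protein livers, and so was also lowest on low-protein replicate 2. For Onecut1 the nearest were Abca1, the cholesterol efflux transporter (0.363), and Atxn7l1 (0.369), against 0.998 for Onecut1 itself. Abca1 read 9.90, 9.98 and 8.85 in controls and 8.20, 8.36 and 8.38 in low-protein livers. Control replicate 3 was again the lowest control, but here it lay above every low-protein array.

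For Foxa2 the nearest were Nedd9 (0.134) and Vgll4, a cofactor of TEAD proteins (0.157), and Nedd9 read 8.17, 7.76 and 7.10 against 6.93, 7.03 and 7.57. Foxa1 was nearest to Dpep1, a dipeptidase (0.107), and Timp2, a metalloproteinase inhibitor (0.111). Foxa3 lay nearest to Slc25a22, a mitochondrial glutamate carrier (0.0893), and Cidec, a lipid droplet protein (0.103). Prox1 lay nearest to Herpud1, of the endoplasmic reticulum stress response (0.0745), and Tbc1d2 (0.0753). Among 24 other hepatocyte factors the nearest were Gata4 for both Foxa1 (0.26) and Foxa2 (0.348), Hnf4a for Foxa3 (0.177), Mlxipl for Onecut1 (0.727), Dbp for Cebpa (0.176) and Tef for Prox1 (0.125). With 6 arrays and 9528 genes, a close match only describes these arrays.

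**Figure D3:**
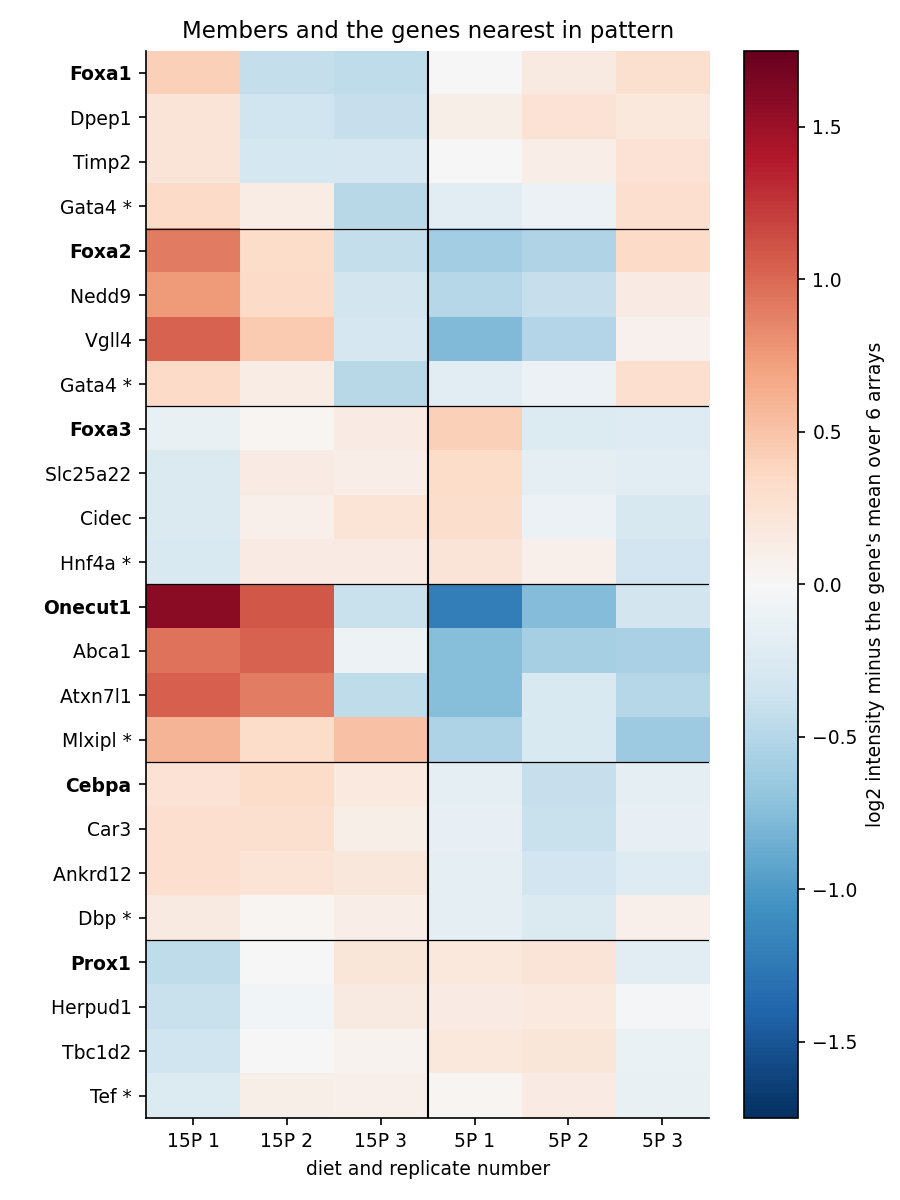
Log2 intensity minus each gene's own mean over the 6 arrays (colour), for the members (bold), the 2 nearest genes of all and, with an asterisk, the nearest of 24 other hepatocyte factors. Onecut1 is deep red on control replicates 1 and 2 only, while Cebpa, Car3 and Ankrd12 are pale red on all 3 controls. Dbp, the hepatocyte factor nearest to Cebpa, is paler and overlaps between the diets.

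Other hepatocyte factors went both ways, and 1 of them passed. Of 24 measured genes in a list of other hepatocyte factors, 1 fell, none rose and 23 did not pass, with a median log2 fold change of -0.02 where all genes had 0.031 and 0.183% of genes passed. Hnf4a, the nuclear receptor at the centre of the network, read 11.46, 11.88 and 11.88 in controls and 11.96, 11.82 and 11.40 in low-protein livers (-0.01, 95% interval -0.41 to 0.39). This is its brightest probe set. Its dimmer probe sets went different ways, at -0.26 without overlap and 0.17 with overlap. Mlxipl, the carbohydrate-responsive factor ChREBP, fell by 0.96 (SE 0.124, limma adjusted p = 0.0362), and the call was lost under 8 alternatives. Creb3l3, a membrane-bound factor of fasting, had 0.45 (limma adjusted p = 0.166), with groups that did not overlap. Onecut2, the paralog of Onecut1, read 9.51, 9.42 and 9.33 against 9.26, 9.28 and 9.09, every low-protein array below every control, for a log2 fold change of -0.21 (limma adjusted p = 0.313). This is its brightest probe set. Its others were also lower, at -0.19 and -0.19 without overlap and -0.34 with overlap. Tbx3 had 0.19 (limma adjusted p = 0.342), higher without overlap by its brightest probe set. Its other probe sets overlapped, at 0.16, -0.06 and 0.40. As background, 10.1% of genes had all low-protein arrays below the controls and 12.8% had all above.

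Among 11 measured C/EBP factors and their regulators none passed, and the median was 0.04. Cebpb, the paralog that partners C/EBP alpha, had -0.09 (95% interval -0.51 to 0.34), and Cebpg had -0.04. Trib3, a pseudokinase of the amino acid response, read 7.15, 7.58 and 7.41 in controls and 7.91, 8.43 and 8.13 in low-protein livers (0.78, limma adjusted p = 0.0918). Trib1, a related pseudokinase that directs C/EBP alpha to degradation, read 6.12, 6.11 and 6.59 against 5.71, 5.87 and 5.53 (-0.57, limma adjusted p = 0.154). The groups did not overlap for either, in opposite directions. For Trib1 this rests on the brightest of 3 probe sets: the others were below the array's median, and the mean of all 3 gave -0.07 (limma adjusted p = 0.827). Trib3 was also read from the brightest of 3, all above the array's median. Its others had 0.95 without overlap and 0.59 with overlap, and the mean of all 3 gave 0.77 (limma adjusted p = 0.171). Ddit3, which pairs with C/EBP factors and blocks their binding, had 0.27 (limma adjusted p = 0.281). Cebpe, below the array's median, had 0.21 (limma adjusted p = 0.329). Both were higher without overlap, as were 12.8% of all genes.

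Among 8 measured Prox1 partners 7 had a lower mean, the median was -0.14, and none passed. The demethylase gene Kdm1a had -0.31 (95% interval -0.52 to -0.10, limma adjusted p = 0.168), the deacetylase gene Hdac3 had -0.20 (limma adjusted p = 0.283) and the corepressor gene Ncor1 had -0.15. Each had every low-protein array below every control, as did 10.1% of all genes. For Ncor1 this held only for the brightest probe set. Its other probe sets overlapped, at -0.25 and 0.04. Ppargc1a, a coactivator of fasting, had -0.44 with overlapping groups by its brightest probe set and -0.66 (limma adjusted p = 0.22) as the mean of its 3. Another of these read 6.44, 6.65 and 6.09 in controls and 5.30, 5.48 and 5.63 in low-protein livers, without overlap (-0.92, limma adjusted p = 0.0652). The remaining probe set had -0.62 with overlapping groups.

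Forkhead genes outside the FOXA group numbered 25, of which 18 had a higher mean (median 0.08) and none passed. Among the 25, 10 had a mean signal below the array's median. Beside Foxo3, the genes of smallest p were Foxc1, Foxi1 and Foxn2. Foxc1 (0.25, limma adjusted p = 0.248) and Foxi1 (0.21, adjusted p = 0.263) were higher without overlap, as were 12.8% of all genes. Both lay below the array's median, and a second Foxc1 probe set had 0.04. Foxn2 was lower with overlapping groups (-0.28, limma adjusted p = 0.275). Foxo3, an insulin-regulated forkhead factor, read 10.22, 10.15 and 8.98 in controls and 8.78, 8.81 and 9.23 in low-protein livers. Control replicate 3 again lay among the low-protein arrays, and Foxo3 passed without it (-1.24, limma adjusted p = 0.0387, when 0.38% of genes did) but not with it (-0.84, limma adjusted p = 0.241). These values come from the brightest of its 3 probe sets: the other two read 3.43 to 4.11, below the array's median, and the mean of all 3 gave -0.18 (adjusted p = 0.561).

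Liver genes known to respond to these factors went both ways. Of 21 measured, 9 were higher and 12 lower with a median of -0.04, and none passed. Their summed intensity, in which the brightest genes weigh most, was lower without overlap, at 155229 to 159264 in controls and 148536 to 153263 in low-protein livers. The albumin gene Alb read 14.38 to 14.40 on the 6 arrays, the top of the signal range, and the transthyretin gene Ttr read 13.90 to 13.97 just below it, so no difference is read from either. Pck1, of gluconeogenesis, had -0.04, and Slc2a2, the hepatocyte glucose transporter, had -0.15. Gys2, liver glycogen synthase, read 9.97, 10.11 and 10.30 against 10.62, 10.66 and 10.61 (0.50, limma adjusted p = 0.0902), and the carnitine transferase gene Cpt1a had 0.36 (adjusted p = 0.164), both without overlap. Cps1, of the urea cycle, and Tdo2, of tryptophan breakdown, had -0.23 and -0.21, every low-protein array below every control. Apoa1 (-0.19) was also lower without overlap, and Serpina1 (0.05) was higher without overlap. Among all genes, 10.1% were lower and 12.8% higher without overlap. The dimmer of the Cps1 probe sets read 12.42, 12.21 and 12.28 against 11.61, 11.76 and 11.45, a larger difference of -0.70 (limma adjusted p = 0.0543 with that probe set standing for the gene).

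**Figure D4:**
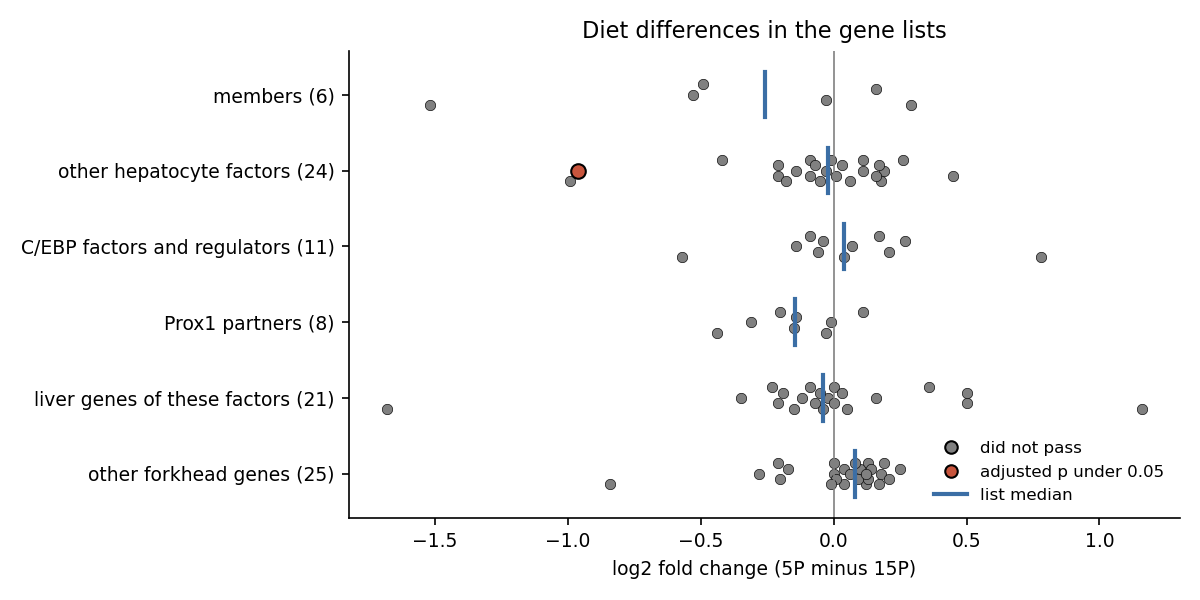
Log2 fold change (5P minus 15P, horizontal axis) of every measured gene in the members and 5 lists, 1 point a gene, with list medians as blue bars and the number of genes in brackets. Mlxipl is the single red point, the only gene past an adjusted p of 0.05, and Onecut1 lies furthest left among the members at -1.52.

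Markers of hepatocytes and of other liver cells were read on the same arrays. All 14 hepatocyte markers were measured above the array's median, and their summed intensity was 162578 to 168150 in controls and 154645 to 157758 in low-protein livers, lower without overlap. The brightest genes weigh most in this sum too, among them Alb and Ttr at the top of the signal range. The sum is not read as a number of hepatocytes. Alb, Ttr, Apoa1, Serpina1, Fgb, Ahsg, Cps1, Tat and Tdo2 are also among the liver genes summed above, so these sums are not independent. None of the 14 passed, with 5 higher, 9 lower and a median of -0.05, and the furthest apart was Hpd, of tyrosine breakdown (-0.82, limma adjusted p = 0.0843). Bile duct cells also use FOXA and Onecut1 factors, and their 6 measured markers summed to 284 to 453 in controls and 232 to 320 in low-protein livers, with 4 of the 6 (Krt7, Spp1, Cftr and Muc1) below the array's median. Control replicate 1, the highest array for Onecut1, Foxa2 and Foxa1, had the highest bile duct sum (453). It also had the highest hepatocyte (168150), stellate cell (3254) and neutrophil (211) sums, so this place is not particular to bile duct markers. The part of any of these cells in the Onecut1, Foxa2 and Foxa1 values was not tested. Lymphatic endothelial markers summed to 1060 to 1365 and 1020 to 1401, sinusoidal endothelial markers to 1507 to 1858 and 1459 to 1901, stellate cell markers to 2137 to 3254 and 2010 to 3150, and Kupffer cell markers to 3974 to 4801 and 4640 to 6354. Red blood cell markers were higher without overlap, at 3588 to 3842 against 4928 to 5372. The beta globin gene Hbb, the brightest of the 6, had 0.48 (limma adjusted p = 0.0729), and 3 of the 6 (Slc4a1, Epb42 and Ahsp) lay below the array's median. Their part in the Cebpa and Onecut1 differences was not tested. All 7 lymphocyte markers lay below the array's median. Neutrophil markers summed to 83 to 211 in controls and 89 to 123 in low-protein livers.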

How the data were processed

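Per the labels' protocols, biotin-labelled liver RNA was read on 6 Affymetrix rat arrays. The authors deposited an intensity for each probe set on each array, made with RMA per the submitters' processing notes (its version is not given in the sources used here). This method equalizes arrays, so a shift common to most genes is removed. Because values ran from 3.61 to 21668, they were taken as linear and converted to log2.

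Of 31099 probe sets, 57 control probe sets were left out. Names came from the platform annotation, matched by gene ID to RefSeq. For gene lists, each of 14217 genes was read from its probe set of highest mean. The diets were compared with limma 3.58.1 under R 4.3.3 (two-sided, residual degrees of freedom 4 plus 4.38 from the prior). P-values were adjusted by Benjamini-Hochberg across every feature fitted, with a threshold of 0.05. Lists are described by counts and medians, and 138 of 165 listed genes were measured. The rule named all members, the 2 nearest genes by pattern and the nearest other hepatocyte factor for each, and up to 4 genes of smallest p per list. Of the cell marker lists, fold changes are given only for Hpd, Hbb and genes shared with other lists. Hnf4a, Cebpb, Cebpg, Ttr, Alb, Apoa1, Serpina1, Pck1, Slc2a2 and the genes of the closing observations were named after their values were seen. The members and lists were chosen with earlier results of these data known. The fit was tested on simulated data. Arrays carry no read depth, and 3 arrays per diet limit the precision. Alternatives covered the prior variance, scaling, filters on dim probe sets, the log offset, array weights, a replicate block, left-out arrays and the choice of probe set. Figures were drawn with matplotlib 3.10.9.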

Additional observations from a re-analysis of the deposited data

How the results depend on the processing

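The count of member probe sets past the test was 0 under every alternative but the left-out arrays, where it ran from 0 to 2; member genes ran from 0 to 1. Both moves came from leaving out control replicate 3, when Onecut1 passed. Over all probe sets 41 passed. The count was 103 with a robust prior variance, 78 with arrays centred on the median, 102 with array weights, 0 with log2(intensity + 16) (limma, 4913 at an unadjusted p under 0.05) and 16 to 109 over the left-out arrays. It was 6 with the replicate number as a block. The numbers gave no pairing, since same-numbered arrays deviated with correlations of -0.087, -0.027 and -0.102 and 0 of 6 arrays correlated best with their own number. In the list of other hepatocyte factors Mlxipl was lost, leaving 0, with 75th-percentile centring, log2(intensity + 16) and the replicate block, and the left-out arrays gave 0 to 1 (0 without any array except low-protein replicate 2). Its log2 fold change then lay between -1.04 and -0.88. Other forkhead genes ran from 0 to 1 over the left-out arrays.

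Among the genes rerun, directions turned for 7 that did not pass. Foxa3 went to 0.02 with 75th-percentile centring, 0.01 with quantile normalization, 0.04 with array weights, and -0.25 to 0.08 over the left-out arrays (0.03, 0.08 and 0.07 without control replicate 3 and low-protein replicates 2 and 3). The brighter Prox1 probe set ran from -0.03 (without control replicate 1) to 0.30 over the left-out arrays, and Ncor1 to 0.04 with its probe set of largest SD. With 75th-percentile centring Hnf4a went to 0.04, Cebpg to 0.01 and Pck1 to 0.01. Hnf4a also went to 0.04 with array weights, Cebpg to 0.01 with its probe set of largest SD and Pck1 to 0.01 with quantile normalization. Over the left-out arrays Hnf4a ran from -0.15 to 0.15, Cebpb from -0.23 to 0.08, Cebpg from -0.12 to 0.02 and Pck1 from -0.10 to 0.04. With the probe set of largest SD Onecut2 went to -0.34 and Cpt1a to 0.55. The differences between FOXA paralogs kept their sign, at 0.67 to 1.06 (Foxa1 less Foxa2), 0.11 to 0.68 (Foxa1 less Foxa3) and 0.11 to 0.91 (Foxa3 less Foxa2) over the left-out arrays. The filter at the median signal left out the dim Cebpa and Prox1 probe sets.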

Other observations

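Some genes tied to these factors varied widely between arrays of 1 diet, and they are named here after their values were seen. Hhex, a homeobox factor of liver development, read 11.77, 11.81 and 9.32 in controls and 9.94, 8.38 and 11.61 in low-protein livers, a range of 3.43 on the log2 scale that crossed both diets. Its log2 fold change was -0.99 (95% interval -3.04 to 1.05). Hamp, the iron hormone hepcidin, read 12.96, 12.54 and 11.35 against 11.67, 11.79 and 8.36. Low-protein replicate 3 alone lay far below the other arrays. Cyp8b1, which makes cholic acid, read 9.45, 7.38 and 9.91 against 9.59, 9.36 and 11.27, with the lowest array a control and the highest a low-protein liver. Igfbp1, a fasting-induced binding protein, read 9.86, 11.15 and 12.33 in controls and 11.70, 11.60 and 11.52 in low-protein livers. Its controls were lowest on replicate 1 and highest on replicate 3, the opposite of Onecut1 and Foxa2, and spread 2.47 on the log2 scale, where its low-protein arrays lay within 0.18.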
